A study of Mus musculus with 4 samples.

Results

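The genes described here build the transport system of the cilium and keep it running. The list held 36 genes of the 55511 features in the UMI table, and they were chosen by name: 11 subunits of intraflagellar transport complex B (IFT-B), 3 of complex A (IFT-A), 8 Bardet-Biedl genes of the BBSome and of the chaperonin that assembles it, 6 motor genes, 3 small GTPases of the ARL family, 2 transcription factors, 2 genes of the ciliary transition zone and Tppp3, which encodes a tubulin-binding protein. No threshold on a measured value entered the choice. The genes were, however, chosen with earlier results of these data known, so comparisons of the list with all genes are descriptions of this list. All 36 had UMIs in these data.

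Cells came from the main olfactory epithelium (MOE) of 4 untreated C57BL/6 male mice (C57BL/6J in the methods), 8 weeks old, with 1 droplet-based 3′ single-cell RNA-seq library (10x Genomics) per mouse. The tissue was dissociated with papain, and live nucleated cells were collected as Hoechst-positive, DRAQ7-negative events. The design has no treated and no mutant animals, so that each comparison runs between cells of the same 4 mice. The questions were in which cell types and at which step of neuronal differentiation the ciliary transport genes were expressed, and whether mature neurons differed in them by position or by odorant receptor.

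Olfactory sensory neurons (OSNs) end in a dendritic knob from which long cilia spread into the mucus, and odorant receptors and the transduction machinery sit in the ciliary membrane. Cilia make no proteins of their own, so that every ciliary protein has to be carried in. Intraflagellar transport trains, built from IFT-B and IFT-A complexes, are pulled towards the tip by kinesin-2 motors and back by cytoplasmic dynein-2. The BBSome, a coat-like complex recruited to membranes by the GTPase ARL6, carries membrane proteins on these trains, and people and mice with Bardet-Biedl gene mutations can lose the sense of smell. RFX and FOXJ1 transcription factors switch on ciliary genes in many ciliated cell types.

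The 4 libraries held 23157467 to 32382702 UMIs in 4746 to 6003 barcodes, and 15859 cells remained after the authors' filters (3006 to 4657 per mouse). Between 22 and 36 of a mouse's barcodes also occurred in another mouse. The authors' annotation was used throughout: globose basal cells (GBC), immediate neuronal precursors (INP), early and late immature OSNs (iOSN1, iOSN2), mature OSNs (mOSN, 10519 cells), horizontal basal cells (HBC1, HBC2), sustentacular cells (Sus) and microvillar cells (Mv1, Mv2). UMIs were summed per mouse and cell type, and a level is given as UMIs per 10000 UMIs of all genes in that sum, in the order mouse 1 to mouse 4. A ± after a mean level is the SD over n = 4 mice and a ± after a log2 change is its standard error. The adjusted p is from edgeR's quasi-likelihood test with the mouse as block, with Benjamini-Hochberg adjustment over all genes tested, and a change was called at an adjusted p under 0.05. Cell types and mature clusters were defined by the authors on the expression of these same cells, so that tests between them are not independent of the grouping, whereas receptor identity and receptor class rest on receptor genes alone.

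RFX factors bind an imperfect inverted repeat known as the X-box, and Rfx3 is one of the genes of the list. Promoter windows of RefSeq (GRCm38.p6, 250 bases before to 50 after the gene's start) were therefore searched on both strands for the motif arm GTNNCC, followed after 3 bases of any kind by the arm GNNAC. 30 of the 36 genes had a window, and 7 of them held a match (23.3%), compared with 1422 of all 27025 genes with a window (5.26%). The windows of the list had a median GC content of 60.7%, against 52.7% over all windows. The part of GC content in this was not tested. The matches are shown because they place subunits of IFT-B, the BBSome, the dynein and the transition zone beside the same short motif. Capitals mark the match, and start sites are those of the RefSeq windows. The GENCODE M21 annotation differs from them for Bbs7 (chr3:36613477), Dync2h1 (chr9:7184446) and Ift57 (chr16:49699233). By its starts the Dync2h1 match lies far inside the gene, the second Ift57 match after the start and the Bbs7 match nearer to the start.
Bbs7, chr3:36613489-36613518, minus strand, centred 114 bases before the start site: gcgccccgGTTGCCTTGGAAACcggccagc
Ift22, first match, chr5:136908079-136908108, plus strand, centred 56 bases before the start site: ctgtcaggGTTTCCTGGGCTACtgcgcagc
Ift22, second match, chr5:136908109-136908138, plus strand, centred 26 bases before the start site: tgttcccgGTCGCCGTGGAAACtgaccagc
Dync2h1, chr9:7177022-7177051, minus strand, centred 22 bases after the start site: gtgaagcgGTCGCCATAGCGACggagcttg
Bbs4, chr9:59353464-59353493, minus strand, centred 30 bases after the start site: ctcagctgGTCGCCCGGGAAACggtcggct
Mks1, chr11:87853183-87853212, plus strand, centred 17 bases before the start site: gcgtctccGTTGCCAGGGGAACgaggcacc
Ift57, first match, chr16:49699199-49699228, plus strand, centred 80 bases before the start site: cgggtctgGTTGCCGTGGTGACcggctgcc
Ift57, second match, chr16:49699234-49699263, minus strand, centred 45 bases before the start site: accgcacaGTCCCCACCGTTACcaggcaac
Bbs1, chr19:4906605-4906634, minus strand, centred 8 bases after the start site: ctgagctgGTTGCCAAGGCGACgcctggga

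Every match but the first of Ift22 and the second of Ift57 read GTTGCC or GTCGCC in its left arm, and both genes with 2 matches, Ift22 and Ift57, encode IFT-B subunits. Among genes of the same pathways outside the list, a match was held by 7 of 15 further transition zone genes, 2 of 7 IFT-B, 1 of 4 IFT-A, 0 of 5 BBSome and chaperonin and 1 of 6 motor genes, and by 2 of 10 genes of lipid-modified cargo and ciliary GTPases, 1 of 10 transcription factors and 3 of 14 genes of motile cilia. A match describes these letters in the window, and whether RFX3 or another factor binds there was not tested.

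The summed level of the transport genes was higher in immature and mature neurons than in their precursors. The summed level of all 36 was 17.8, 12.2, 12.8 and 21.4 in GBC of mice 1 to 4, 24.4, 22.7, 22.5 and 24.7 in INP, 37.2, 38.2, 37.8 and 37.1 in iOSN1, 48.0, 48.1, 47.9 and 49.4 in iOSN2 and 48.5, 47.5, 46.7 and 48.0 in mOSN. The ranges of iOSN1 and iOSN2 lay entirely above those of the earlier stages, and iOSN2 and mOSN overlapped. In the non-neuronal types the sum ran from 8.26 in the lowest mouse of Sus to 21.5 in the highest mouse of Mv1. Not every gene took part, as the counts by step show. Genes with many UMIs, such as Arl3 and Ift43, weigh most in such a sum, so each gene was also scaled to its own highest cell type. Along the lineage, 20 of the 36 had their highest mean in mOSN, 11 in iOSN2 and 5 in iOSN1. The share of all genes that peak at each stage was not measured, so whether the list or a group within it differs in this was not tested. The stage with the highest mean was also the highest in at least 3 of the 4 mice for all genes but Ift22, Ift46 and Ift88 (2 mice each), Ift52 (1 mouse) and Mks1 (0 mice). All 8 BBSome and chaperonin genes and all 3 IFT-A genes peaked in mOSN, whereas 6 of the 11 IFT-B genes and 3 of the 6 motor genes peaked in iOSN2. Across all 10 types, Ift46 and Ift52 were the 2 genes with a higher mean in a non-neuronal type than in any neuronal stage.

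**Figure D1:**
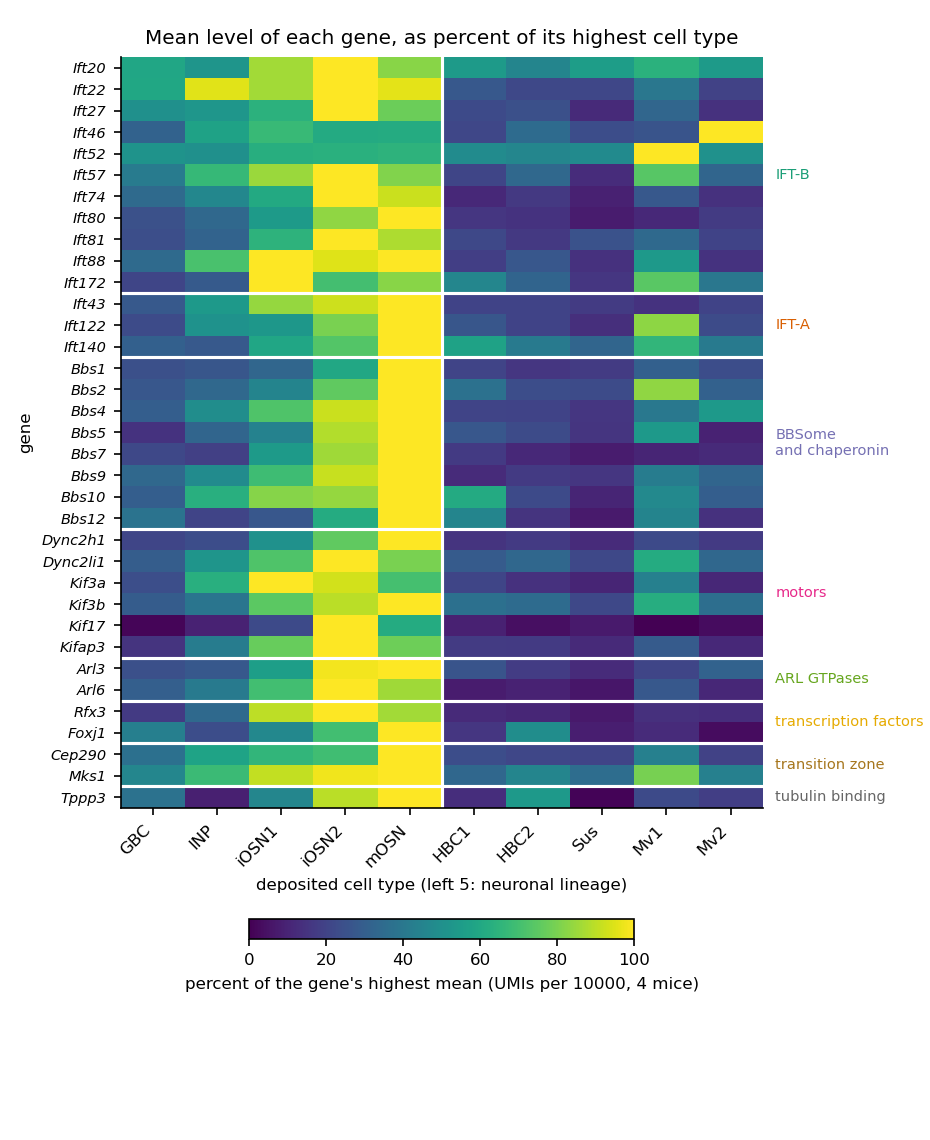
Heat map of the mean level of each of 35 genes of the list in the 10 cell types, as a percent of that gene's highest type (UMIs per 10000, mean of 4 mice). Rows are grouped by role, and the white vertical line separates the 5 neuronal stages on the left from the 5 non-neuronal types on the right. BBSome and IFT-A rows are brightest in mOSN, and Ift46 and Ift52 are brightest in Mv2 and Mv1.

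Counted step by step, the list moved mainly upwards until iOSN2. From GBC to INP, 15 of the 34 genes of the list that passed the filter on low counts were higher (of all 12549 genes tested, 20.2% were higher) and 1 was lower (all genes, 24.3%). From INP to iOSN1, 18 were higher (all genes, 21.7%) and 0 were lower (all genes, 17.9%), with 0 lower at an unadjusted p under 0.05 in edgeR and 0 called lower by DESeq2. From iOSN1 to iOSN2, 25 were higher (all genes, 23.5%) and 1 was lower (all genes, 21.6%). At the last step, from iOSN2 to mOSN, 10 were higher (all genes, 15.5%) and 7 were lower (all genes, 16.0%). The median log2 change of the tested genes of the list was 0.50, 0.58, 0.55 and 0.10 at these 4 steps, compared with -0.048, 0.048, -0.029 and 0.028 over all genes tested. Bbs10 and Bbs12, which encode chaperonin-like proteins, did not pass the filter and were not tested between cell types. In mOSN their levels were 0.0862, 0.0901, 0.107 and 0.0987 for Bbs10 and 0.06, 0.0815, 0.0899 and 0.0766 for Bbs12.

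Of the 4 steps, the counts at the first and the last were the least stable. Without mouse 1, 8 genes of the list were called between GBC and INP in place of 16, and without mouse 4, 10. Of all genes 36.1% and 35.4% were called in these settings. Between iOSN2 and mOSN, 10 were called without mouse 3 and 9 without mouse 4, in place of 17, where 24.2% and 24.2% of all genes were called. Without the mouse as a block the last step had 8 calls of 34 genes tested, where 25.1% of all genes were called, and DESeq2 called 7 higher and 9 lower there, where edgeR had 10 and 7. After thinning cells to 3000 UMIs, 6 genes were called at the first step, and 30.9% of all genes. Scaling by library totals in place of TMM moved the median of all genes between iOSN1 and iOSN2 by -0.15 and the share of called genes that were higher from 52.1% to 38.9%. With this scaling 20 genes of the list were higher and 1 was lower in iOSN2.

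**Figure D2:**
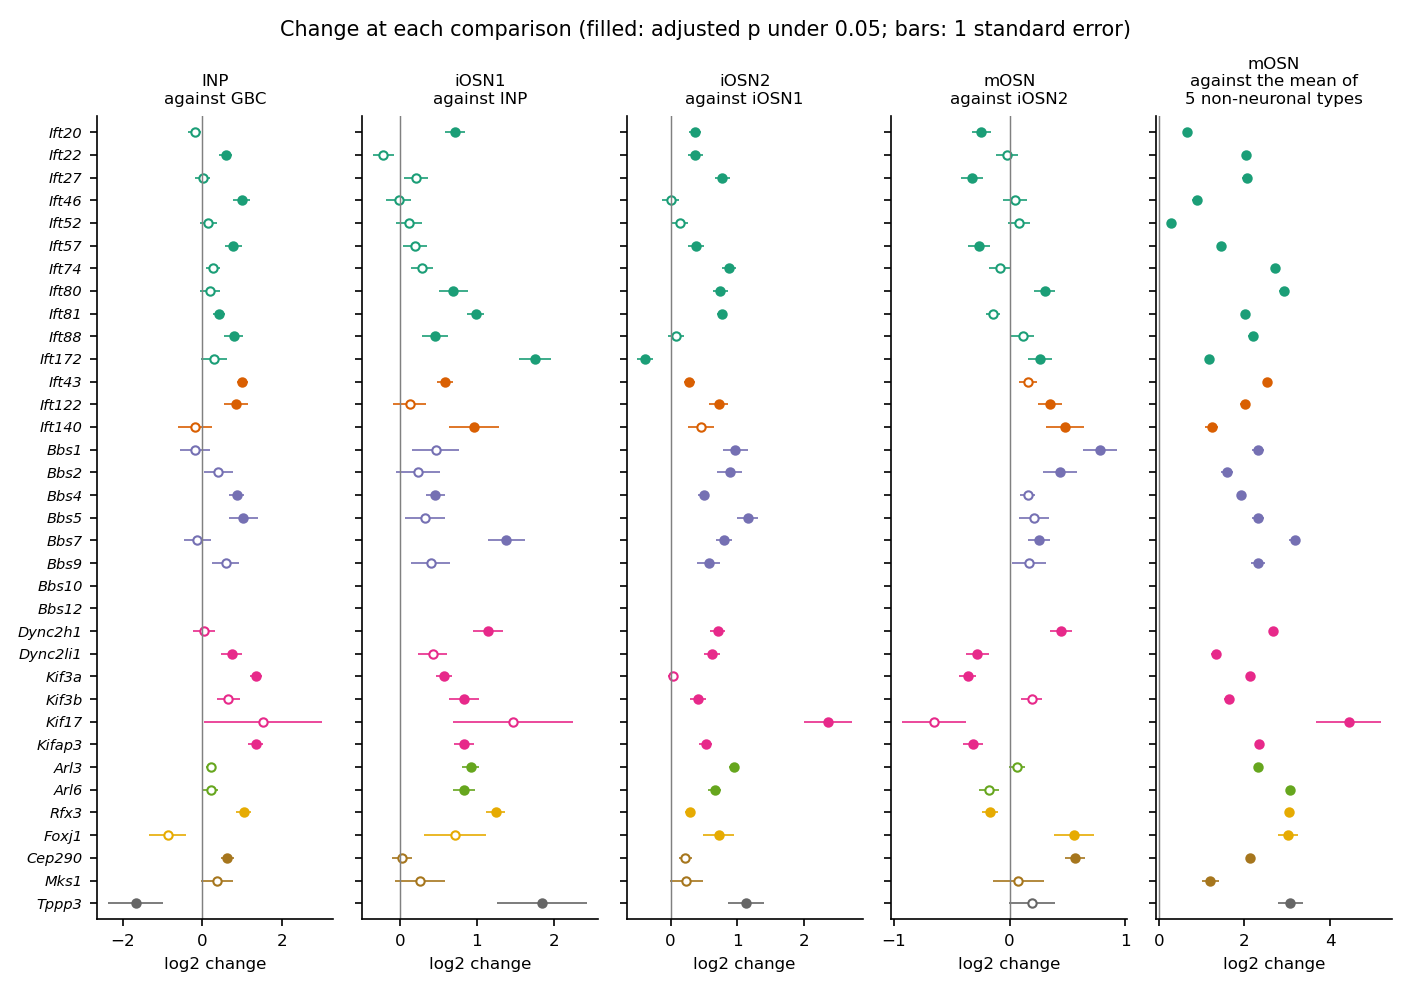
Log2 change of the same 35 genes of the list at the 4 steps of the lineage and in mOSN against the mean of 5 non-neuronal types. Points are fitted changes, bars 1 standard error, filled points have an adjusted p under 0.05 and colors mark the roles. The x axes differ in scale between panels. In the right panel all 33 tested genes drawn lie above 0, from 0.28 for Ift52 to 4.44 for Kif17.

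Rfx3 (ENSMUSG00000040929, chr19:27761721-28011166) encodes a winged-helix factor that binds X-boxes in the promoters of ciliary genes. Its level in mice 1 to 4 was 0.358, 0.29, 0.255 and 0.312 in GBC, 0.697, 0.491, 0.571 and 0.655 in INP, 1.71, 1.84, 1.41 and 1.42 in iOSN1, 1.8, 1.92, 1.69 and 1.67 in iOSN2 and 1.48, 1.61, 1.46 and 1.56 in mOSN. GBC, INP and iOSN1 did not overlap, iOSN1 and iOSN2 did, and mOSN lay below iOSN2. Rfx3 rose at the first 3 steps, from GBC to INP (log2 change 1.04 ± 0.19, adjusted p = 2.1e-05), to iOSN1 (1.24 ± 0.12, adjusted p = 1e-10) and to iOSN2 (0.30 ± 0.077, adjusted p = 0.0017), and the small fall to mOSN lay just inside the threshold (-0.17 ± 0.068, adjusted p = 0.0498) and lost it in 10 of 12 alternative settings. Foxj1 (chr11:116330704-116335399), a forkhead factor best known from cells with motile cilia, followed later. It measured 0.218, 0.0545, 0.207 and 0.2 in INP, 0.365, 0.312, 0.305 and 0.354 in iOSN1, 0.515, 0.56, 0.477 and 0.439 in iOSN2 and 0.761, 0.724, 0.719 and 0.65 in mOSN. The last 3 stages did not overlap. Foxj1 rose from iOSN1 to iOSN2 (0.72 ± 0.23, adjusted p = 0.011) and again to mOSN (0.56 ± 0.17, adjusted p = 0.011), and the step from INP to iOSN1 did not pass the test (0.72 ± 0.40, adjusted p = 0.16). In GBC the level was 0.264, 0.124, 0 and 0.842. In mouse 4, 1 GBC with a UMI of Sntn or Tmem212, markers of multiciliated respiratory cells, stood at 14.4 and the other 62 at 0.0987. The GBC with such a UMI stood at 0 in mouse 1 and at 7.47 in mouse 2.

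**Figure D3:**
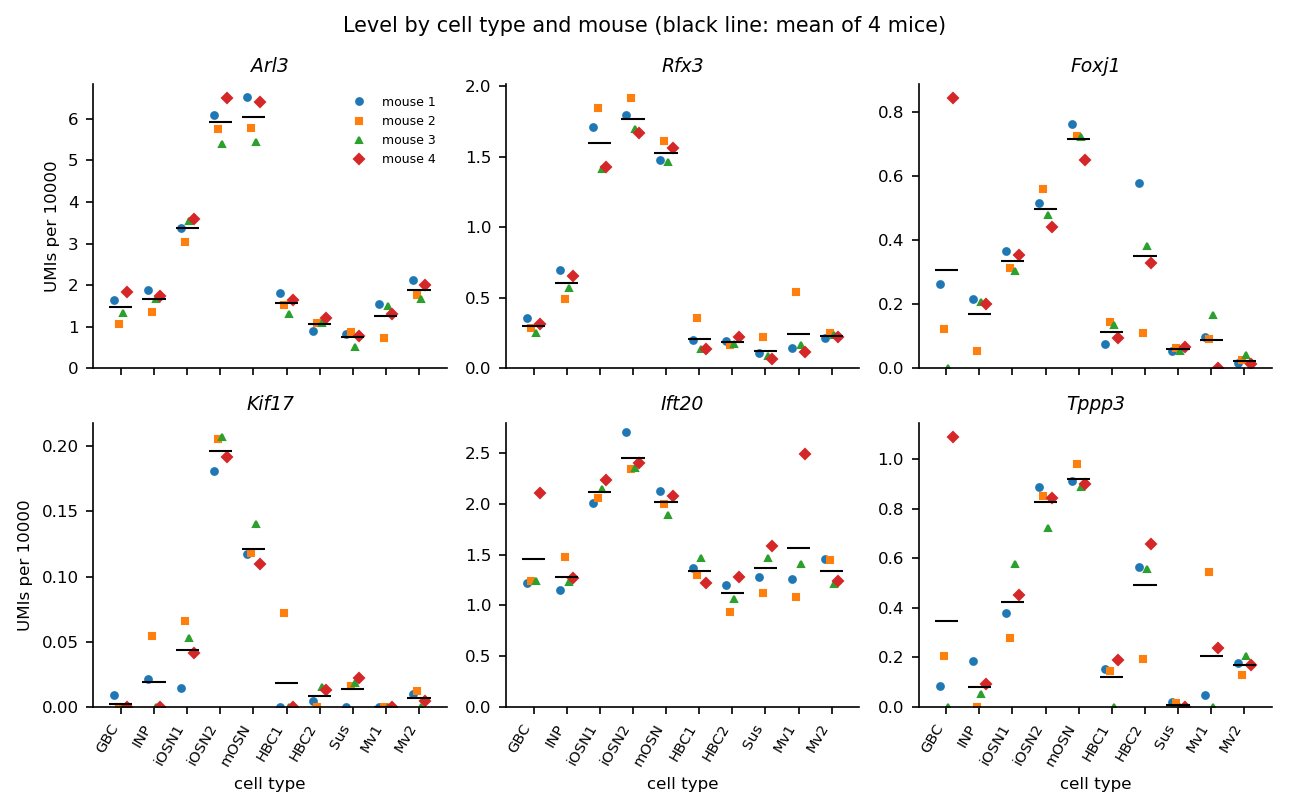
Level of 6 genes (UMIs per 10000) in each cell type, 1 symbol per mouse, with the mean of 4 mice as a black line. Rfx3 is near its plateau in iOSN1, Foxj1 climbs up to mOSN and Kif17 is highest in iOSN2. In GBC, mouse 4 lies above the others for Foxj1, Ift20 and Tppp3.

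IFT-B is the larger complex and carries cargo towards the ciliary tip with kinesin-2. Of its 11 genes on the list, 5 rose from GBC to INP, 5 from INP to iOSN1 and 7 from iOSN1 to iOSN2. At the last step 2 rose and 3 fell. Ift88, a core subunit whose loss leaves cells without cilia, measured 0.518, 0.124, 0.318 and 0.437 in GBC, 0.686, 0.818, 0.588 and 0.782 in INP, 0.904, 1.03, 0.994 and 1.1 in iOSN1, 0.857, 0.914, 1.08 and 0.99 in iOSN2 and 0.986, 1.01, 1.06 and 0.972 in mOSN. It rose at the first step (0.78 ± 0.23, adjusted p = 0.0059) and the second (0.45 ± 0.17, adjusted p = 0.029), and its last 3 stages overlapped. The second call was lost in 6 of 12 alternative settings. Ift172, which links IFT-B to the turnaround at the tip, was highest at an earlier stage. Its level was 0.174, 0.218, 0.173 and 0.236 in INP, 0.677, 0.756, 0.689 and 0.716 in iOSN1, 0.416, 0.548, 0.466 and 0.563 in iOSN2 and 0.458, 0.627, 0.593 and 0.655 in mOSN. iOSN1 lay above every other stage in all 4 mice, with a rise from INP (1.75 ± 0.21, adjusted p = 1.2e-08), a fall to iOSN2 (-0.38 ± 0.12, adjusted p = 0.0094) and a smaller rise to mOSN (0.26 ± 0.10, adjusted p = 0.044).

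Ift20, Ift27 and Ift57 peaked in iOSN2 and fell at maturity. Ift20, the IFT-B subunit that also resides at the Golgi, where ciliary membrane proteins start their route, was 1.15, 1.47, 1.23 and 1.27 in INP, 2.01, 2.06, 2.14 and 2.24 in iOSN1, 2.71, 2.34, 2.35 and 2.4 in iOSN2 and 2.12, 2.0, 1.89 and 2.07 in mOSN. INP, iOSN1 and iOSN2 did not overlap, and neither did iOSN2 and mOSN. Ift20 rose at both middle steps (0.71 ± 0.13, adjusted p = 2.1e-05, then 0.37 ± 0.092, adjusted p = 0.0012) and fell in mOSN (-0.24 ± 0.083, adjusted p = 0.022). Ift27, a small GTPase within IFT-B that takes part in BBSome exit from cilia, was 2.27, 2.01, 1.9 and 2.41 in iOSN2 and 1.8, 1.6, 1.48 and 1.77 in mOSN, lower in mOSN in each mouse (-0.33 ± 0.10, adjusted p = 0.0094). Ift57, a peripheral subunit, was 1.12, 0.914, 0.969 and 1.06 in iOSN2 and 0.946, 0.742, 0.795 and 0.818 in mOSN, again lower in each mouse (-0.26 ± 0.10, adjusted p = 0.034). The call was lost in 6 of 12 alternative settings for Ift20, in 8 for Ift57 and in 2 for Ift27. Ift80 and Ift172 were the IFT-B genes that rose at this step, Ift80 from 0.778, 0.937, 1.02 and 0.848 to 0.97, 1.1, 1.13 and 1.08 (0.30 ± 0.087, adjusted p = 0.0066). The other IFT-B genes did not change at maturity beyond the threshold. Ift74 and Ift81, whose products form a tubulin-carrying pair, had means of 1.76 and 1.36 in iOSN1 and 2.9 and 2.1 in iOSN2, and both rose at that step (0.87 ± 0.11 for Ift74 and 0.77 ± 0.068 for Ift81). Ift22 had means of 0.942 in GBC and 1.51 in INP (0.58 ± 0.17, adjusted p = 0.0051), and Ift46 of 0.301 and 0.547 (0.98 ± 0.22, adjusted p = 0.00045), both early rises. Ift52 had means from 0.367 in INP to 0.472 in mOSN, and passed the test at none of the 4 steps.

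IFT-A drives the return journey and the entry of some membrane proteins into the cilium. Ift43, a small peripheral subunit, climbed over the first 3 steps. It measured 1.08, 1.41, 0.955 and 2.06 in GBC, 2.71, 2.89, 2.44 and 2.6 in INP, 3.97, 4.31, 3.92 and 4.36 in iOSN1, 4.7, 4.5, 4.04 and 4.94 in iOSN2 and 5.35, 4.69, 4.59 and 5.07 in mOSN. GBC, INP and iOSN1 did not overlap (1.00 ± 0.14, adjusted p = 2.3e-07, then 0.59 ± 0.11, adjusted p = 2.3e-05), and the rise to iOSN2 was smaller (0.28 ± 0.085, adjusted p = 0.007). Ift122, a core subunit of the same complex, was 0.189, 0.0414, 0.159 and 0.234 in GBC, 0.283, 0.491, 0.207 and 0.418 in INP, 0.43, 0.411, 0.331 and 0.278 in iOSN1, 0.544, 0.571, 0.57 and 0.501 in iOSN2 and 0.605, 0.714, 0.712 and 0.706 in mOSN. INP and iOSN1 overlapped, and the last 3 stages were separate from each other in all 4 mice. Ift122 rose at the first step (0.85 ± 0.30, adjusted p = 0.021, lost in 6 of 12 alternative settings), the third (0.72 ± 0.14, adjusted p = 5e-05) and the last (0.35 ± 0.10, adjusted p = 0.0081). Ift140, another core subunit, rose at the last step from 0.21, 0.309, 0.28 and 0.223 to 0.268, 0.406, 0.372 and 0.344 (0.48 ± 0.16, adjusted p = 0.021), higher in mOSN in each mouse.

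All 6 tested BBSome genes rose from iOSN1 to iOSN2, and some had risen before. Of the 6, 2 rose from GBC to INP and 2 from INP to iOSN1, and the 6 rose from iOSN1 to iOSN2 by log2 changes of 0.50 to 1.16, and 3 rose further in mOSN. Bbs1, the subunit mutated most often in Bardet-Biedl syndrome, which binds cargo and ARL6, measured 0.0545, 0.164, 0.0864 and 0.182 in INP, 0.188, 0.166, 0.119 and 0.125 in iOSN1, 0.214, 0.28, 0.316 and 0.278 in iOSN2 and 0.428, 0.458, 0.466 and 0.459 in mOSN. INP and iOSN1 overlapped, and iOSN1, iOSN2 and mOSN did not. Bbs1 rose to iOSN2 (0.97 ± 0.19, adjusted p = 5.3e-05) and to mOSN (0.78 ± 0.15, adjusted p = 5.6e-05), where its change was the largest of the tested genes of the list. Bbs2, a subunit of the BBSome core, took the same course, with 0.227, 0.245, 0.219 and 0.215 in iOSN1, 0.367, 0.366, 0.394 and 0.39 in iOSN2 and 0.487, 0.521, 0.481 and 0.514 in mOSN. These 3 stages did not overlap either (0.89 ± 0.18, adjusted p = 0.00013, then 0.44 ± 0.15, adjusted p = 0.019).

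Bbs4, which contacts membrane cargo and centriolar satellites, rose at each of the first 3 steps. Its level was 0.283, 0.456, 0.223 and 0.25 in GBC, 0.49, 0.436, 0.536 and 0.509 in INP, 0.706, 0.769, 0.722 and 0.716 in iOSN1, 0.931, 0.96, 0.949 and 0.866 in iOSN2 and 0.977, 1.04, 1.12 and 0.894 in mOSN. INP, iOSN1 and iOSN2 did not overlap. The log2 changes were 0.86 ± 0.18, adjusted p = 0.00055 in INP, 0.46 ± 0.13, adjusted p = 0.0075 in iOSN1 and 0.50 ± 0.082, adjusted p = 4.5e-06 in iOSN2, and the last step did not pass the test (0.16 ± 0.067, adjusted p = 0.072). Bbs5, a membrane-binding subunit, was 0.123, 0.0414, 0.0636 and 0.125 in GBC, 0.218, 0.164, 0.138 and 0.273 in INP, 0.282, 0.285, 0.225 and 0.278 in iOSN1 and 0.581, 0.486, 0.56 and 0.52 in iOSN2. It rose at the first step (1.03 ± 0.37, adjusted p = 0.02) and the third (1.16 ± 0.16, adjusted p = 2.4e-07). Bbs7, part of the BBSome core, was 0.153, 0.109, 0.138 and 0.182 in INP, 0.4, 0.49, 0.437 and 0.354 in iOSN1, 0.688, 0.68, 0.684 and 0.582 in iOSN2 and 0.769, 0.772, 0.759 and 0.776 in mOSN, 4 ranges without overlap. Its largest rise was from INP to iOSN1 (1.38 ± 0.24, adjusted p = 1.3e-05). Bbs9, another core subunit, had means of 0.284 in iOSN1, 0.377 in iOSN2 and 0.412 in mOSN and rose at 1 step (0.57 ± 0.17, adjusted p = 0.0071).

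Kif3a, Kif3b, Kifap3, Dync2h1 and Dync2li1 each rose at 1 or more of the first 3 steps. Kif3a encodes a motor subunit of heterotrimeric kinesin-2, and Kifap3 the subunit that ties this motor to its cargo. Kif3a was 0.754, 0.373, 0.764 and 0.655 in GBC, 1.7, 1.53, 1.61 and 1.8 in INP, 2.78, 2.74, 2.59 and 2.41 in iOSN1, 2.28, 2.58, 2.61 and 2.32 in iOSN2 and 1.87, 1.89, 1.97 and 1.68 in mOSN. GBC, INP and iOSN1 did not overlap, and mOSN lay below iOSN2 in each mouse. Kif3a rose at the first step (1.35 ± 0.15, adjusted p = 1.7e-09) and the second (0.58 ± 0.10, adjusted p = 2.1e-05) and fell at the last (-0.36 ± 0.074, adjusted p = 0.00019). Kifap3 was 0.698, 0.456, 0.509 and 0.78 in GBC, 1.7, 2.07, 1.43 and 1.55 in INP, 2.99, 3.19, 3.33 and 2.79 in iOSN1, 3.58, 4.23, 4.23 and 4.0 in iOSN2 and 3.03, 3.25, 3.24 and 2.98 in mOSN. Its first rise was of the same size (1.34 ± 0.18, adjusted p = 1.9e-07), it went on rising to iOSN2 (0.53 ± 0.094, adjusted p = 1.5e-05) and then fell (-0.32 ± 0.087, adjusted p = 0.0043).

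Kif17, a homodimeric kinesin-2 that has been linked to the delivery of cyclic nucleotide-gated channels into olfactory cilia, was low before the late neuronal stages. It was 0.00943, 0, 0 and 0 in GBC, 0.0218, 0.0545, 0 and 0 in INP, 0.0148, 0.0663, 0.053 and 0.0417 in iOSN1, 0.181, 0.206, 0.207 and 0.192 in iOSN2 and 0.117, 0.118, 0.14 and 0.11 in mOSN. iOSN2 lay above all other stages without overlap. The GBC sums held 1 Kif17 UMI and the INP sums 3 in all 4 mice together, so that differences below iOSN1 were not detectable at this depth. Kif17 passed the filter through the last 2 stages, so its fitted change from iOSN1 to iOSN2 (2.36 ± 0.36, adjusted p = 1.4e-06), the largest of the list at that step, is given as a description, and the lower level in mOSN missed the threshold (-0.65 ± 0.28, adjusted p = 0.07). Dync2h1, the heavy chain of the retrograde dynein, kept rising instead. It measured 0.305, 0.545, 0.311 and 0.418 in INP, 0.874, 0.994, 0.789 and 0.737 in iOSN1, 1.03, 1.31, 1.4 and 1.33 in iOSN2 and 1.38, 1.8, 1.73 and 1.82 in mOSN, higher at each stage than at the one before in each mouse (1.14 ± 0.20, adjusted p = 1e-05, 0.71 ± 0.11, adjusted p = 2.4e-06 and 0.45 ± 0.092, adjusted p = 0.00022 at the last 3 steps). Dync2li1, the light intermediate chain of the same motor, went down at maturity, from 1.05, 1.02, 1.02 and 1.09 to 0.97, 0.782, 0.763 and 0.834 (-0.28 ± 0.10, adjusted p = 0.03, lost in 6 of 12 alternative settings). Kif3b, the partner of Kif3a in the motor, rose at the second (0.83 ± 0.20) and the third step (0.41 ± 0.12) and had means of 0.272 in INP and 0.697 in mOSN.

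ARL3 and ARL6 are small GTPases of the cilium. ARL3 releases lipid-modified proteins inside it, and ARL6 recruits the BBSome. Arl3 was 1.88, 1.36, 1.68 and 1.75 in INP, 3.38, 3.04, 3.54 and 3.58 in iOSN1, 6.08, 5.75, 5.4 and 6.49 in iOSN2 and 6.52, 5.76, 5.45 and 6.41 in mOSN. It rose at the second (0.92 ± 0.11, adjusted p = 4.9e-09) and the third step (0.95 ± 0.078, adjusted p = 9.1e-13), with no overlap between INP, iOSN1 and iOSN2, and iOSN2 and mOSN overlapped. Arl6 had means of 0.949, 1.63, 2.34 and 2.01 from INP to mOSN and rose at the same 2 steps (0.83 ± 0.15 and 0.66 ± 0.10). Cep290 and Mks1 belong to the transition zone, the gate at the ciliary base. Cep290, whose mutation impairs smell in people and mice, was 1.36, 0.663, 0.764 and 1.12 in GBC, 1.91, 1.15, 1.5 and 1.6 in INP, 1.76, 1.87, 1.64 and 1.74 in iOSN1, 1.76, 1.81, 2.01 and 1.81 in iOSN2 and 2.6, 2.64, 2.71 and 2.67 in mOSN. mOSN lay above all earlier stages in each mouse. Cep290 rose at the first step (0.62 ± 0.16, adjusted p = 0.0018) and at the last (0.57 ± 0.090, adjusted p = 5.3e-06), and neither step between passed the test. Mks1 stayed low, with means of 0.0889 in GBC and 0.194 in mOSN, and passed the test at none of the 4 steps.

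Tppp3 encodes a small protein that binds and bundles microtubules. It measured 0.0848, 0.207, 0 and 1.09 in GBC, 0.185, 0, 0.0519 and 0.0909 in INP, 0.38, 0.278, 0.577 and 0.452 in iOSN1, 0.89, 0.851, 0.72 and 0.842 in iOSN2 and 0.911, 0.979, 0.888 and 0.9 in mOSN. INP, iOSN1 and iOSN2 did not overlap, and Tppp3 rose at the second (1.84 ± 0.59, adjusted p = 0.011) and the third step (1.13 ± 0.27, adjusted p = 0.00065). In GBC mouse 4 stood far above the other mice, with 19.8 in 1 cell with a UMI of Sntn or Tmem212 and 0.0658 in the other 62. The fall from GBC to INP, the only one of the list at that step (-1.68 ± 0.69, adjusted p = 0.0455), turned into a change of 0.43 without mouse 4. 3 GBC of all mice held such a UMI, and those of mice 1 and 2 stood at 0 for Tppp3. With such cells left out of all types the change was 0.51 (adjusted p = 0.59). Over the whole list the count at this step was then 15 of 34 genes tested, where 44.2% of all genes were called.

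Compared with the mean of the 5 non-neuronal types, all 34 tested genes of the list were higher in mOSN (all genes, 40.6%) and 0 were lower (all genes, 33.7%), also at an unadjusted p under 0.05 in edgeR and by DESeq2. The median log2 change was 2.13, compared with 0.035 over all genes. DESeq2 moved the median of all genes by -0.13 and called 33 genes of the list (all genes, 79.5%). The largest differences of the genes other than Kif17 and Tppp3 were those of Bbs7 (3.17 ± 0.13, adjusted p = 3.7e-23), Arl6 (3.06 ± 0.10, adjusted p = 2.3e-25), Rfx3 (3.05 ± 0.086, adjusted p = 9.2e-28) and Foxj1 (3.02 ± 0.22, adjusted p = 5.5e-15). Kif17 passed the filter through the late neuronal stages in which it is high and is counted here as a description. It had 0 to 6 UMIs per non-neuronal type in all mice together, so that its fitted change (4.44) depends on the prior count and gives no bound. Tppp3 had 2 UMIs in Sus in all mice together, so that its fitted change (3.07) rests in part on a type near 0, and its mean in mOSN was 1.87 times that in HBC2. In Mv1, Bbs7 had 4 and Foxj1 5 UMIs. Foxj1 had 13 UMIs in Sus and 11 in HBC1, so that its fitted change too rests in part on types near 0. Its mean in mOSN was 2.04 times that in HBC2. Arl6 was 2.29, 1.8, 1.92 and 2.01 in mOSN, and its highest non-neuronal type was Mv1 with 0.63, 0.905, 0.332 and 0.712. Rfx3 had its highest non-neuronal mean in Mv1 too, with 0.145, 0.543, 0.166 and 0.119. Bbs7 was highest outside the neurons in HBC1, with 0.127, 0.0721, 0.136 and 0.188. None of these groups overlapped with mOSN.

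Some genes of the list were used well beyond neurons. Ift52 had the smallest difference (0.28 ± 0.090, adjusted p = 0.0057), and Mv1 lay above mOSN for it in each mouse, with 0.97, 0.543, 0.581 and 0.83 against 0.464, 0.485, 0.46 and 0.477. Ift46 was 0.808, 0.872, 1.12 and 1.0 in Mv2 (Ascl3-positive microvillar cells, 19.5 for Ascl3) and 0.568, 0.609, 0.564 and 0.597 in mOSN. Mv2 lay above mOSN without overlap. Ift20 was also widely expressed, from 1.12 in HBC2 to 1.56 in Mv1, against 2.02 in mOSN (0.66 ± 0.076, adjusted p = 6.2e-10). Microvillar cells of the Mv1 group, with a mean Trpm5 level of 6.01, had the highest non-neuronal mean for 24 of the 36 genes. Mv1 was the smallest type, with 20 to 54 cells and 84314 to 206270 UMIs per mouse, so its means for genes with few UMIs are uncertain. The share of all genes with their highest non-neuronal mean in Mv1 was not measured, so whether the list differs in this was not tested.

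Free RNA from neurons can reach other droplets, so the levels of Omp, Stoml3, Cnga2, Cnga4 and Adcy3, 5 genes of mature neurons, served as a background in non-neuronal cells. Omp stood at 1.13% to 5.88% of its mOSN level in these types. Set against the highest share of the 5 neuron genes in the same type and mouse, 25 of the 36 genes of the list were above background in all 4 mice in HBC1, 29 in HBC2, 25 in Sus, 27 in Mv1 and 35 in Mv2. The share of all genes above this background was not measured, so whether the list differs from other genes in this was not tested. After thinning each cell to 3000 UMIs, Ift20 was detected in 44.8% of mOSN and in 24.9% to 34.2% of the non-neuronal types, and Omp in 12.7% to 17.1% of the latter (means of 4 mice). Without thinning Ift20 was detected in 61.2% of mOSN. Foxj1, detected in 19.0% of thinned mOSN and 30.0% of unthinned ones, was found in 0.51% of thinned Mv2 cells.

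Foxj1 and Tppp3 had their highest non-neuronal means in HBC2. Foxj1 was 0.578, 0.11, 0.38 and 0.33 and Tppp3 0.564, 0.193, 0.555 and 0.66 in HBC2 of mice 1 to 4. HBC2 carried less Krt5 (7.28) than HBC1 (21.3) and more of the sustentacular gene Cyp2g1 (25.7 against 0.865), so its name rests on a mixture of markers. 20 of its cells held a UMI of Sntn or Tmem212, none of them from mouse 2. In these 20 cells Foxj1 averaged 5.12 and Tppp3 9.84 over the 3 mice that had them. In the other 524 cells Foxj1 averaged 0.198 and Tppp3 0.169. By contrast, 8 Mv2 cells with such a UMI held 1 Foxj1 and 1 Tppp3 UMI in all, so the UMI alone does not mark a multiciliated cell. With all such cells left out, 34 genes of the list were called between mOSN and the non-neuronal types (all genes, 74.5%).

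Partner genes outside the list were counted at the same steps. IFT and BBSome genes with other names, the remaining motor chains, carriers of lipid-modified cargo, transition zone genes, ciliary transcription factors and genes of motile cilia together made 80 genes. Of the 66 that passed the filter, 20 were higher and 11 lower in INP than in GBC, 26 and 5 in iOSN1 than in INP, 36 and 4 in iOSN2 than in iOSN1, 20 and 10 in mOSN than in iOSN2, and 57 and 4 in mOSN than in the non-neuronal types. Of all genes tested, 20.2% were higher and 24.3% lower at the first of these comparisons, 21.7% and 17.9% at the second, 23.5% and 21.6% at the third, 15.5% and 16.0% at the fourth and 40.6% and 33.7% in mOSN against the non-neuronal types. From GBC to INP, 0 higher and 4 lower of the 12 tested genes of motile cilia, 0 higher and 1 lower of 5 transcription factors, 4 higher and 4 lower of 16 transition zone genes and 6 higher and 0 lower of 7 motor genes were called. These counts include the GBC with a Sntn or Tmem212 UMI described above. The part of such cells in the falls of motile cilia genes was not tested. Pde6d and Rp2, partners of ARL3 in handling lipid-modified proteins, rose from iOSN1 to iOSN2 (Pde6d 1.16 ± 0.087, adjusted p = 1.1e-13, Rp2 1.14 ± 0.11, adjusted p = 7.8e-11) together with Arl3. Ttc8, the BBSome subunit also called BBS8, rose at the same step (0.93 ± 0.10, adjusted p = 1.4e-09), and so did the chaperonin gene Mkks (1.28 ± 0.33, adjusted p = 0.0014). Rfx4, a relative of Rfx3, rose from iOSN2 to mOSN (1.59 ± 0.28, adjusted p = 4.5e-05). Ttc21b, which encodes the IFT-A subunit IFT139, fell from iOSN1 to iOSN2 (-1.10 ± 0.39, adjusted p = 0.02) and again to mOSN (-1.04 ± 0.39, adjusted p = 0.036), the steps at which Ift122 rose. Dnaic2, Dnah11 and Rsph4a, genes of motile axonemes, rose from iOSN1 to iOSN2 (Dnaic2 4.04 ± 0.45, adjusted p = 2.7e-09, Dnah11 1.94 ± 0.28, adjusted p = 3.8e-07, Rsph4a 1.89 ± 0.20, adjusted p = 4.8e-10), although the cilia of OSNs are regarded as immotile. Sntn was at 0.000517 and Tmem212 at 0.00337 in mOSN.

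Within mature neurons, Tppp3 separated subsets of cells and most other genes of the list differed by degree or not beyond the spread between mice. The authors sorted 9539 mature OSNs into 10 clusters without using receptor genes, 5 dorsal and 5 ventral, named for Calb2, Cd36, Cd55 and Dlg2. The summed level of the 36 genes had means from 39.2 ± 1.21 in Dlg2+ D. to 53.2 ± 1.38 in Cd55+ V., which overlapped with Calb2+ V. (52.9 ± 1.21). Without Tppp3, Calb2+ V. was the highest at 52.2 ± 1.12 and Cd55+ V. stood at 49.1 ± 1.13. An F test over the 10 clusters called 21 of the 35 genes tested, where 47.7% of all genes were called, with a median F of 2.67 against 2.11. Without the block 12 were called, and of all genes 34.3%, so that the list then stood at the background. By role, 9 of 11 IFT-B genes, 3 of 3 IFT-A genes and 3 of 3 ARL genes were called, but 1 of 7 BBSome genes.

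Tppp3 stood apart. It was 5.15, 5.17, 5.31 and 5.7 in Cd36+ D., 4.07, 3.98, 3.48 and 3.88 in Cd36+ V., 3.1, 2.85, 3.64 and 3.03 in Cd55+ D. and 3.96, 3.83, 4.25 and 4.39 in Cd55+ V. In the other 6 clusters it ran from 0.0861 in the lowest mouse to 0.845 in the highest, so that no mouse of the Cd36 and Cd55 clusters overlapped with them (F = 480, adjusted p = 3.2e-108). Arl3 varied in degree. It was 9.08, 7.87, 8.05 and 9.09 in Calb2+ V., 4.48, 3.62, 3.73 and 3.62 in Dlg2+ D. and 4.93, 4.15, 4.12 and 5.1 in Dlg2+ V. (F = 47.3, adjusted p = 4e-39). Calb2+ V. lay above each of the other clusters without overlap. Rfx3 was lowest in the same Dlg2+ clusters, with 1.35, 1.05, 0.811 and 1.16 in Dlg2+ D. and 1.05, 1.31, 1.06 and 1.18 in Dlg2+ V., while the other 8 clusters had means from 1.5 to 1.8 (F = 7.47, adjusted p = 2.7e-08).

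Among IFT-B genes, Ift46, Ift172 and Ift27 had the largest F. Ift27 means ran from 1.31 in Dlg2+ D. to 2.16 in Cd55+ V. (F = 7.75, adjusted p = 1.3e-08), and the 4 mice measured 2.19, 2.32, 1.91 and 2.22 in Cd55+ V. Ift172 means ran from 0.345 in Dlg2+ D. to 0.677 in Ventral (F = 7.92, adjusted p = 7.9e-09), with 0.332, 0.321, 0.354 and 0.373 in Dlg2+ D. and 0.568, 0.748, 0.675 and 0.716 in Ventral. Ift46, which stabilizes IFT-B, differed by position. The 5 dorsal clusters had Ift46 means from 0.334 to 0.461 and the 5 ventral ones from 0.505 to 0.687 (F = 8.28, adjusted p = 3e-09). In the plain Dorsal cluster Ift46 was 0.506, 0.467, 0.339 and 0.417 and in the plain Ventral cluster 0.667, 0.686, 0.691 and 0.705, without overlap.

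**Figure D4:**
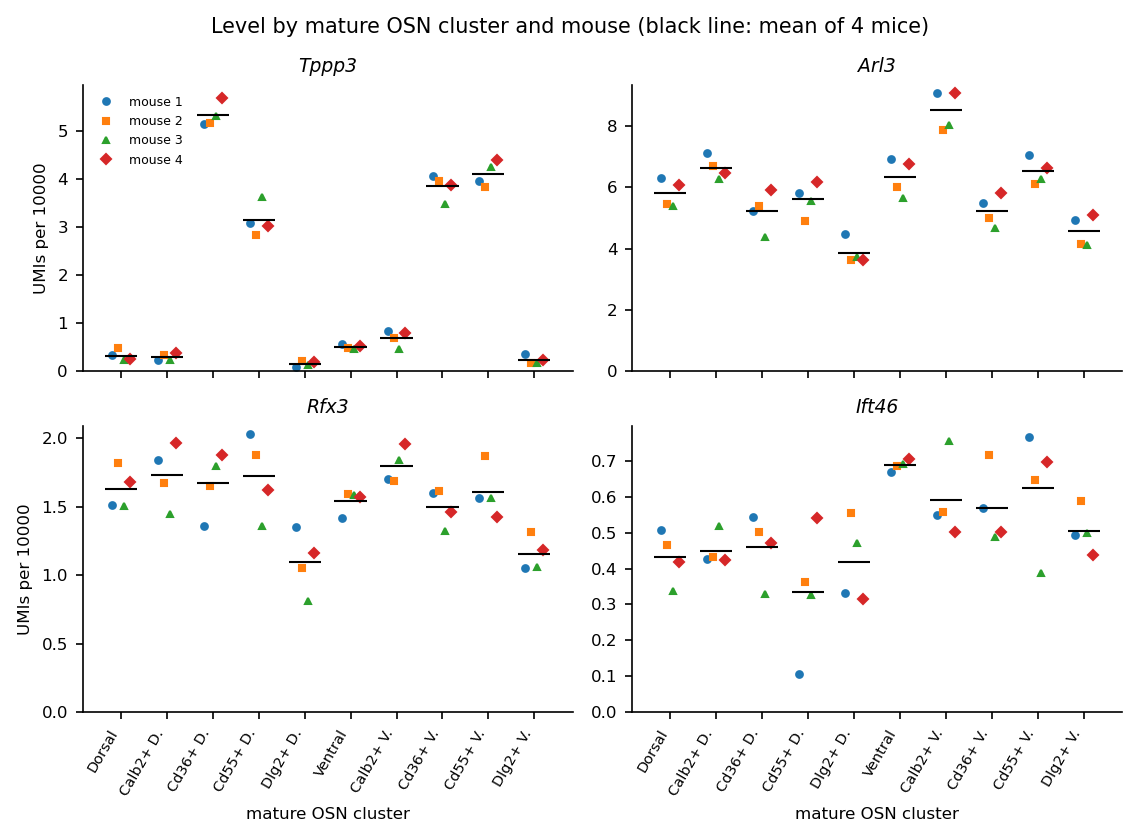
Level of Tppp3, Arl3, Rfx3 and Ift46 (UMIs per 10000) in the 10 clusters of mature OSNs, 1 symbol per mouse and the mean of 4 mice as a black line. Tppp3 is high in the 4 Cd36+ and Cd55+ clusters, Arl3 is highest in Calb2+ V., Rfx3 is lowest in the Dlg2+ clusters and the Ift46 means of dorsal clusters lie below those of ventral clusters.

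Dorsal and ventral clusters were then compared as means of 5 clusters each. 1 gene of the list was higher dorsally (all genes, 9.47%) and 9 were lower (all genes, 10.9%), with a median log2 change of -0.072 against -0.0065 over all genes. Scaling by library totals moved the share of called genes that were higher from 46.4% to 34.9%, with 1 gene of the list higher and 12 lower. Without the block 6 genes were called (all genes, 16.4%), and 6 after thinning (all genes, 15.8%). Bbs4 was the gene that was higher dorsally (0.27 ± 0.061, adjusted p = 0.00031), with 1.05, 1.04, 1.19 and 0.971 in the Dorsal and 0.956, 0.981, 1.08 and 0.902 in the Ventral cluster, higher in each mouse but with overlapping ranges. The lower genes were led by Tppp3 (-0.52 ± 0.081, adjusted p = 4e-08) and Ift46 (-0.48 ± 0.10, adjusted p = 2.1e-05). For Tppp3 this is an average over 5 pairs of clusters, and the Cd36+ pair ran the other way without overlap, as its values above show. Dync2li1 (-0.20 ± 0.070, adjusted p = 0.024), Ift80 (-0.20 ± 0.070, adjusted p = 0.027), Ift27 (-0.16 ± 0.051, adjusted p = 0.01) and Arl3 (-0.16 ± 0.029, adjusted p = 5.3e-06) followed with smaller differences. In the plain Dorsal and Ventral clusters, Dync2li1 was 0.952, 0.689, 0.71 and 0.736 and 0.995, 0.798, 0.805 and 0.854, lower dorsally in each mouse, Ift80 0.814, 1.14, 1.16 and 0.88 and 1.1, 1.16, 1.21 and 1.16, and Arl3 6.3, 5.45, 5.38 and 6.09 and 6.93, 6.01, 5.65 and 6.76. The calls of Ift80 and Dync2li1 were lost in 4 and 5 of 11 alternative settings, that of Ift27 in 3, that of Bbs4 in 1, and those of Tppp3, Ift46 and Arl3 in 0.

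Neurons that express the same odorant receptor form a population, and receptor identity uses none of the 36 genes. 42 populations had at least 5 neurons in each mouse, 1782 neurons in all. 18 of the 36 genes passed the filter in sums this small, and 6 were called over populations (all genes, 39.3%), a share below that of all genes. The median F was 1.39 for the list and 1.39 for all genes. With cells of at least 2000 detected genes 3 of 18 were called (all genes, 27.6%), and after thinning 2 of 10 (all genes, 36.4%).

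Tppp3 passed the filter through the populations in which it was high, since its median mean over the populations was 0.13, so its call (F = 29.6, adjusted p = 4.4e-59) is given as a description. Its levels in mice 1 to 4 were 3.77, 4.55, 7.51 and 9.48 in Olfr354 neurons, 5.64, 3.24, 3.95 and 5.43 in Olfr827 neurons and 4.29, 4.42, 4.05 and 4.47 in Olfr1440 neurons. In 7 populations, among them Olfr1037 and Olfr1384, no Tppp3 UMI was found in any mouse. A count of 0 there allows a level of up to 0.162 to 0.241, depending on the UMIs of the population (counting error only). Tppp3 was above 1 in every mouse in 9 populations and below 1 in every mouse in 26. Of the latter, none had more than 11.1% of its neurons in the 4 Cd36+ and Cd55+ clusters. Of the former, Olfr354 and Olfr827 had all of their neurons there, Olfr1440 92.6%, Olfr523 63.4%, Olfr591 39.0% and Olfr295 34.4%. The other 3 had few or none there. Olfr1264 had 0 of 50 neurons and Olfr689 1 of 32 in those clusters, with mean Tppp3 levels of 1.21 and 1.3. Olfr731 had 0 of its 47 neurons in those clusters and 93.6% in the plain Ventral cluster, and yet its Tppp3 level was 4.24, 2.26, 1.38 and 3.22.

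Arl3 varied within narrower bounds (F = 4.56, adjusted p = 1.8e-12). It was 4.61, 2.89, 2.79 and 4.39 in Olfr1037 neurons, the lowest mean, and 9.68, 9.42, 7.41 and 9.5 in Olfr728 neurons, the highest. Those ranges did not overlap, whereas most populations between them did. Ift74 (F = 2.34, adjusted p = 0.00024), Ift20 (F = 1.93, adjusted p = 0.0055), Ift81 (F = 1.82, adjusted p = 0.012) and Ift43 (F = 1.59, adjusted p = 0.0494), all subunits of the transport trains, completed the called genes. The call was lost in 7 of 12 alternative settings for Ift43, in 5 for Ift20, in 4 for Ift81, in 1 for Ift74 and in 0 for Arl3. Ift74, which pairs with IFT81 to carry tubulin, had its lowest mean in Olfr1222 neurons (2.04, 1.4, 1.87 and 1.52) and its highest in Olfr1206 neurons (3.29, 6.28, 4.6 and 3.25). Ift43 went from 3.37, 2.97, 3.91 and 4.56 in Olfr1197 neurons to 6.16, 6.28, 7.39 and 6.51 in Olfr1206 neurons. Ift20 means ran from 1.06 to 3.43 and Ift81 means from 0.689 to 2.77.

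**Figure D5:**
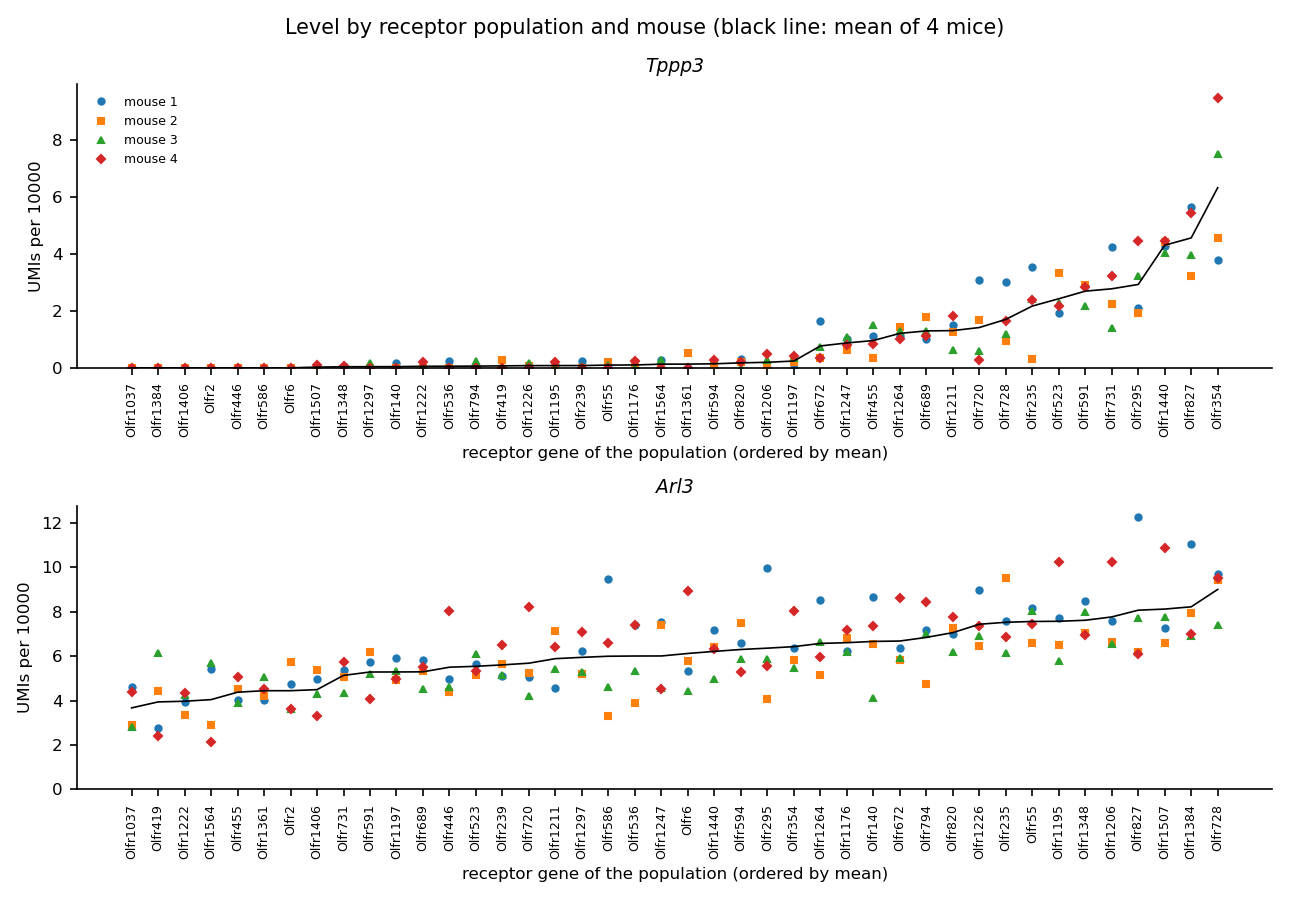
Level of Tppp3 (top) and Arl3 (bottom) in UMIs per 10000 in the 42 receptor populations with at least 5 neurons per mouse, 1 symbol per mouse, ordered by the mean of 4 mice (black line). Tppp3 runs from 0 to a mean of 6.33, and Arl3 from 3.67 to 9.0.

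Class I receptors are the older of both receptor families, and most class I neurons lie in the dorsal zone. 1071 class I neurons of 106 receptors were compared with 8641 class II neurons of 843 receptors. All 36 genes were tested, 3 were higher in class I (all genes, 9.71%) and 7 were lower (all genes, 8.89%), with a median log2 change of -0.068 against -0.0015. Under library totals the share of called genes that were higher went from 52.2% to 33.4%, and 1 gene of the list was higher and 13 lower. Without the block 2 genes of the list were called (all genes, 9.13%), DESeq2 called 3 (all genes, 8.58%) and thinned cells gave 4 (all genes, 11.3%), so that in these settings the list was not above the share of all genes. In place of 10 genes, the test called 6 without mouse 3 (all genes, 15.1%).

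Ift46 had the largest fall in class I neurons, with 0.4, 0.292, 0.309 and 0.445 against 0.606, 0.653, 0.601 and 0.603 in class II (-0.70 ± 0.10, adjusted p = 1.4e-09), and the classes did not overlap. Bbs2 was 0.375, 0.465, 0.378 and 0.415 against 0.508, 0.516, 0.499 and 0.524 (-0.28 ± 0.10, adjusted p = 0.031) and Cep290 2.37, 2.29, 2.3 and 2.32 against 2.62, 2.66, 2.78 and 2.71 (-0.15 ± 0.047, adjusted p = 0.013), also without overlap. Ift74, Dync2h1 and Arl3 were lower in class I in each mouse but by small amounts. Ift74 was 2.57, 2.15, 2.26 and 2.14 against 2.84, 2.66, 2.75 and 2.53 (-0.17 ± 0.047, adjusted p = 0.0035). Dync2h1 was 1.16, 1.51, 1.61 and 1.54 against 1.39, 1.81, 1.77 and 1.84 (-0.16 ± 0.058, adjusted p = 0.03), and Arl3 5.75, 5.16, 4.72 and 5.38 against 6.66, 5.82, 5.57 and 6.54 (-0.16 ± 0.035, adjusted p = 6.8e-05). Ift172 was 0.335, 0.611, 0.426 and 0.637 against 0.491, 0.639, 0.619 and 0.66, with overlapping ranges (-0.25 ± 0.095, adjusted p = 0.043). In the other direction, Tppp3 was 1.24, 1.75, 1.59 and 1.43 in class I and 0.852, 0.901, 0.779 and 0.839 in class II (0.87 ± 0.064, adjusted p = 2.3e-30). Bbs4 was 1.04, 1.29, 1.15 and 0.9 against 0.943, 0.995, 1.1 and 0.892 (0.21 ± 0.067, adjusted p = 0.014), with overlapping ranges. The call of Bbs4 was lost in 7 of 11 alternative settings, those of Bbs2, Dync2h1 and Ift172 in 6 each, those of Ift74 and Cep290 in 3 each, that of Arl3 in 1, and those of Tppp3 and Ift46 in 0. The part of dorsal position in these class differences was not tested.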

How the data were processed

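Per the labels and methods, the authors aligned reads with Cell Ranger 6.0.1 to GRCm38 with a custom annotation and deposited matrices of unnormalized UMI counts (genes by barcodes). The deposited barcode and feature lists and the cell annotation (cell types, mature OSN clusters and receptor identities) are other, non-numeric values. The authors clustered cells in Seurat after removing blood, immune and high-mitochondrial cells, and they dropped neurons with more than 1 receptor above a cutoff as possible multiplets. Retained cells had at least 1001 genes and at most 9.98% mitochondrial UMIs.

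Counts were summed per mouse and group. A 3′ UMI count does not scale with transcript length. Sums were tested in edgeR 4.0.16 (R 4.3.3, TMM, filterByExpr, glmQLFit and glmQLFTest, Benjamini-Hochberg threshold 0.05). The same 4 animals gave every group, so the mouse entered as a block. 1430 receptor genes were left out of tests among neurons. Alternatives were no block, DESeq2 1.42.0, library totals, no filter on low counts, cells with at least 2000 genes, thinning to 3000 UMIs, populations with at least 3 neurons per mouse, leaving out each mouse, and leaving out the 4% of barcodes with the highest Scrublet score (scanpy 1.11.5), since the automatic threshold called 1 to 37 barcodes per mouse (0.0176% to 0.616%) and did not work in 3 of the 4 mice. Leaving out cells with a Sntn or Tmem212 UMI was added after seeing the data. The members and lists were chosen with earlier results of these data known. In each comparison, called genes with the 6 largest changes in each direction were named (the 6 largest F for tests over several groups), and Foxj1, Rfx3, Tppp3, Ift20, Ift88, Ift122, Bbs4, Kif17 and Cep290 in the lineage regardless of their change. 1 gene of the list is not reported here and enters the counts only. Of each group of partner genes a few were named, among the called genes with the largest changes. The tests were also run on simulated counts with known changes, with the same dispersion for all genes and no difference between mice. That run could not check the mouse block or genes of unequal spread. Gene positions are from GENCODE M21 (GRCm38) and promoter sequences from RefSeq. Intervals and floors cover counting error only.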

Additional observations from a re-analysis of the deposited data

Results flagged for a closer look

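In GBC of mouse 4, Ift20 was 2.11 against 1.22 to 1.24 in the other mice, and Foxj1 and Tppp3 were high in the same sample. 1 cell of that sample held a UMI of Sntn or Tmem212, markers of multiciliated cells, with 10.8 for Ift20, 14.4 for Foxj1 and 19.8 for Tppp3. The other 62 cells stood at 1.63, 0.0987 and 0.0658, and such cells aside the other mice had 1.21 to 1.26 for Ift20. In mouse 1, Ift20 in iOSN2 was 2.71 against 2.34 to 2.4 in the other mice and Ift122 in mOSN was 0.605 against 0.706 to 0.714 in the other mice. In mouse 2, Foxj1 in INP was 0.0545 against 0.2 to 0.218 in the other mice, and Rfx3 in Mv1, the smallest cell type, was 0.543 against 0.119 to 0.166 in the other mice. Kif17 in GBC of mouse 1 was 0.00943 against 0 in each other mouse and Kif17 in HBC1 of mouse 2 was 0.0721 against 0 in each other mouse, in both cases from 1 UMI. For the summed level of the 36 genes, mouse 4 stood at 49.4 against 47.9 to 48.1 in the other mice (iOSN2), at 13.7 against 10.9 to 11.3 in the other mice (HBC2) and at 12.2 against 12.61 to 12.64 in the other mice (Mv2), and mouse 1 at 54.7 against 52.2 to 52.4 in the other mice (Calb2+ V.). In each case 1 mouse lay far from the other 3 relative to the range of all 4 (Dixon's 95% criterion). Of 110 groups of 4 mice examined, 11 did so. Chance gives about 1 in 20 for normally distributed values. A group with 1 UMI in all, such as both of Kif17, is flagged by construction, so the count cannot be set against that rate.

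Of the cells that the authors had set aside, immune cells are given for Ift20 and blood cells for Ift140, genes chosen after their values were seen. In 2391 immune cells Ift20 was 1.17, 0.893, 1.03 and 1.04, a mean of 1.03 ± 0.113 (SD, n = 4) or 51.2% of its mOSN level, while Omp stood at 9.01% of its own. In 314 blood cells, rich in the hemoglobin gene Hba-a1, Ift140 was 1.23, 1.16, 1.32 and 1.24, a mean of 1.24 ± 0.0679 or 364% of its mOSN level, with Omp at 4.61%. Ift20 in the same blood cells had a mean of 0.531. Most other genes of the list also exceeded the share of Omp by their means, with Omp alone as background here. Some did so by the mean but not in every mouse, such as Ift74 in immune cells (2 of 4 mice) and Kifap3 in blood cells (1 of 4 mice). Ift52 was highest in immune cells at 54.0% of its mOSN level, and Ift43, Bbs5 and Arl6 lay below Omp there, as did Ift122, Ift172, Bbs1, Bbs4, Bbs5, Bbs9, Bbs12, Kif3b and Rfx3 in blood cells.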

How the results depend on the processing

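Leaving out each mouse in turn gave 8 to 15 called genes of the list from GBC to INP (16 with all mice), 15 to 18 from INP to iOSN1, 25 to 26 from iOSN1 to iOSN2, 9 to 13 from iOSN2 to mOSN, 34 to 35 between mOSN and non-neuronal types, 14 to 18 over the clusters, 7 to 10 between dorsal and ventral clusters, 4 to 5 over receptor populations and 6 to 8 between receptor classes. In the same order, the share of all genes called ran over 35.4% to 39.6%, 32.4% to 35.1%, 37.4% to 39.5%, 24.2% to 26.8%, 69.3% to 70.1%, 39.7% to 41.4%, 16.3% to 17.2%, 31.5% to 33.1% and 13.4% to 15.3%. The lowest counts were near or below the share of all genes in every comparison but INP to iOSN1, iOSN1 to iOSN2 and mOSN against non-neuronal types. Mice are the same animals in every group, so the pairing is given by the design. Without the block, 8 genes were called from iOSN2 to mOSN, 12 over the clusters, 6 between dorsal and ventral clusters and 2 between classes, and no other count moved by more than 1.5 times. Thinning to 3000 UMIs per cell left 6 calls from GBC to INP, 6 between dorsal and ventral clusters, 2 over populations and 4 between classes. Cells with at least 2000 genes gave 3 over populations, and DESeq2 3 between classes. The log2 change of Tppp3, INP against GBC, ran from -3.30 without mouse 1 to the opposite sign, 0.43, without mouse 4, and it reversed to 0.51 without cells holding a Sntn or Tmem212 UMI, an alternative chosen after seeing the data. Over all named genes and alternatives, 1301 of 1489 values stayed on their side of the threshold, 173 lost the call, 13 gained it and 2 reversed. A change of sign counted as reversed only where the change was called in either setting, and F tests have no direction. Thinning and leaving out mice leave fewer UMIs by construction, and the cause of the other changes was not tested. Depth limited the genes with few UMIs, and differences of Kif17 between cell types other than the late neuronal stages were not detectable.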

Other observations

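Among mature neurons, partner genes outside the list varied as well. Over the 10 clusters, 42 of 61 tested partner genes were called in edgeR's quasi-likelihood test (47.7% of all genes), led by Dnaic2, an outer dynein arm gene (F = 84.9, adjusted p = 6.5e-54), Cfap126 (F = 51.2, adjusted p = 4.6e-41) and Pde6d, whose lipid-modified cargo is released by ARL3 (F = 50.7, adjusted p = 8e-41). Between dorsal and ventral clusters 5 were higher and 19 lower dorsally (9.47% and 10.9% of all genes), and between class I and class II neurons 3 of 68 were higher and 14 lower in class I (9.71% and 8.89% of all genes). Genes of motile cilia made 7 of the 14 lower ones. Unc119b, which carries myristoylated proteins and is emptied by ARL3, was lower in class I (log2 change -0.78 ± 0.13, adjusted p = 1.7e-07), and so was Rp2, the protein that switches ARL3 off (-0.24 ± 0.049, adjusted p = 3.9e-05). Rfx4 was lower in class I (-1.20 ± 0.18, adjusted p = 4.7e-09), as were Dnaic2 (-3.65 ± 0.29, adjusted p = 1.5e-27) and Dnah11 (-0.65 ± 0.12, adjusted p = 2.3e-06). Rab23, a GTPase of ciliary signaling, was higher (0.66 ± 0.11, adjusted p = 5.6e-08), and so was Cfap126 (0.64 ± 0.043, adjusted p = 5.6e-35).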
